A study of Mus musculus with 10 samples.

Results

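The genes described here are 10 members of the carbonic anhydrase family, out of 23111 genes named on the arrays. They were taken by name: Car1, Car2, Car3, Car4, Car7, Car8, Car9, Car12, Car13 and Car14, each measured by 1 probe set. Car9 drew attention to the family because its mean was higher in tumours lacking Ucp2, so the genotype difference was part of the choice and is given below as values and counts, with no p for any of the 10. The measurements are 10 arrays of colon tumours from mice of the C57BL6/J strain, 5 Ucp2+/+ (WT, replicates 1 to 5) and 5 Ucp2-/- (KO, replicates 6 to 10). Mice of both genotypes had been through the AOM/DSS protocol, a colon cancer model that pairs a carcinogen (azoxymethane) with an agent that inflames the colon (dextran sodium sulphate), and tumours were taken at week 15. Ucp2 encodes a carrier of the inner mitochondrial membrane. The labels do not say whether Ucp2 was lost in all cells, how the controls were bred or whether each tumour came from its own mouse, so the spread given here is that between samples. The Ucp2 signal was not analysed here, so the genotypes rest on the labels.

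Carbonic anhydrases are zinc enzymes that convert carbon dioxide and water to bicarbonate and a proton and back. In the colon they feed the exchangers that absorb sodium chloride and secrete bicarbonate, and the surface colonocyte is their best known site. Car1 and Car2 are cytosolic enzymes of the colonocyte, and Car4 is held on its brush border by a lipid anchor. Car9 is a transmembrane enzyme with its active site outside the cell, known as a target of the hypoxia-inducible factor HIF and as a regulator of pH in tumours. Car12 and Car14 are also transmembrane enzymes, Car3, Car7 and Car13 are cytosolic, and Car8 is a relative that lacks the enzymatic activity.

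Upstream sequence is shown for Car9, since binding of HIF beside its start is the textbook basis of its use as a hypoxia gene, for Car12, the transmembrane form set beside Car9 below, and for Car4, whose signal varied most. The 250 bases before the start are from RefSeq, build GRCm38.p6, which held entries for 5 of the 10 genes. Capitals mark the HIF core ACGTG or GCGTG and the HNF4 motif CAAAGTCC, searched on both strands.
Car9 (chr4:43506776-43507025, plus strand): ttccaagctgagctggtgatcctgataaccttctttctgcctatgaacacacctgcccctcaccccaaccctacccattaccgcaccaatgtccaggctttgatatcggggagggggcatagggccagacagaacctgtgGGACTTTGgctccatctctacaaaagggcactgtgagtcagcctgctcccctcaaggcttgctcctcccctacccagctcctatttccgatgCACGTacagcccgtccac
Car12 (chr9:66713436-66713685, plus strand): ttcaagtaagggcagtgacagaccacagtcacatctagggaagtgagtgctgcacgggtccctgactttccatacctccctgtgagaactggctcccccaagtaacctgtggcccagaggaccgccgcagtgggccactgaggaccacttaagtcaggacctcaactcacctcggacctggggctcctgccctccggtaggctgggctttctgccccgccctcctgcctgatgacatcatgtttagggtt
Car4 (chr11:84957504-84957753, plus strand): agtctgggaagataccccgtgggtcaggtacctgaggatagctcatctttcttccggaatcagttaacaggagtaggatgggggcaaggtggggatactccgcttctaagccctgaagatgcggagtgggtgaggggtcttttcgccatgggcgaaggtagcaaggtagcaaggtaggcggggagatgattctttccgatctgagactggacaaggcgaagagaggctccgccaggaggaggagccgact
The Car9 sequence held 1 HIF core, read on the opposite strand from -18, and 1 HNF4 motif, also on the opposite strand, from -110. An HIF core was present in 38.6% of 32851 upstream sequences of this length and the HNF4 motif in 1.2%. The core was not particular to Car9. It was also present upstream of Car14, 1 time, and at 2 of the 3 listed starts of Car7, 1 of which held the HNF4 motif too. Neither pattern was found in the Car12 or Car4 sequence, and the CDX core TTTATG or TTTATT, which occurred in 25.5% of sequences, was absent from each of the 3. A match describes these letters only. Car1, Car2, Car3 and Car13 are neighbours on chromosome 3 in the order Car13, Car1, Car3, Car2.

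All values are log2 signals, on which a step of 1 is a doubling, and they compare a gene with itself across arrays and not with another gene. Median signals of the arrays lay between 5.83 and 5.92. All 10 epithelial markers examined, among them Krt19 and Hnf4a, had means above 5.14, used as a guide to background because 95% of 1088 olfactory receptor genes had lower means. All 6 measured erythrocyte markers, among them Hbb-bs and Alas2, had means below that guide, which bears on Car1 and Car2 because red cells also hold these enzymes. The means of Car3 and Car7 were below it too, so their values are open to background. WT replicate 5 stood apart from the other arrays. Its absorptive colonocyte score, the mean of 18 marker genes after each was centred on its mean over the arrays, was -1.30, and the other 9 arrays lay between -0.52 and 0.66. Where leaving it out changed a call or a value by much, the value without it is given.

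Among the cytosolic forms of the colonocyte, Car1 changed little across the WT tumours and spread more across the KO tumours. In WT replicates 1 to 5 the Car1 signal was 10.91, 10.95, 10.79, 10.56 and 10.84, and in KO replicates 6 to 10 it was 10.70, 11.65, 11.17, 10.47 and 11.44. KO replicates 7, 10 and 8 lay above all WT arrays, while KO replicate 9 lay below all of them. WT replicate 5, the array with the lowest colonocyte score, had a Car1 signal in the middle of its group. For Car2 the WT values were 9.91, 10.17, 9.93, 10.36 and 9.75 and the KO values 9.74, 10.36, 10.11, 9.82 and 10.19. The Car2 ranges of the genotypes nearly coincided, from 9.75 to 10.36 in WT and from 9.74 to 10.36 in KO. Car13 ranged from 7.59 to 7.95 in WT and from 7.67 to 8.34 in KO.

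Car4, the brush border form, varied far more. The WT values were 9.47, 8.28, 9.41, 8.28 and 5.24, and the KO values were 8.13, 9.27, 8.26, 8.31 and 6.55. WT replicate 5 and KO replicate 10 were the low arrays, and the value of WT replicate 5 was close to the guide to background. The highest and lowest arrays differed by 18.8-fold. The SD of Car4 within genotype was 1.40, at percentile 99.7 of the 23111 genes, against 0.37 for Car1 (percentile 92.9) and 0.25 for Car2 (percentile 83.3).

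**Figure D1:**
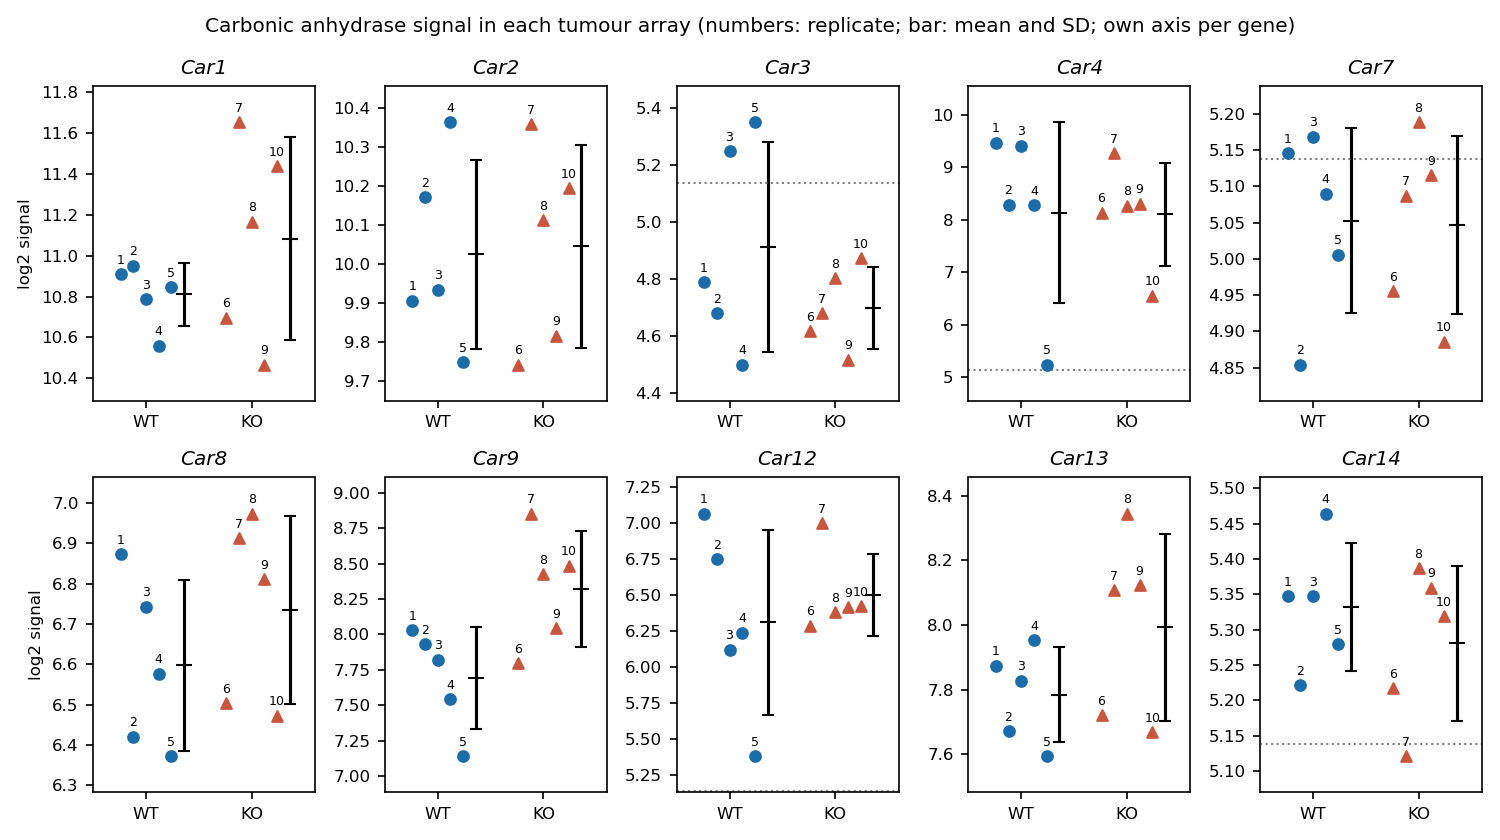
Log2 signal of each carbonic anhydrase gene in each array, WT as circles and KO as triangles, with the replicate number beside each point and the mean and SD of the group to its right. Each panel has its own vertical axis, and the dotted line is the guide to background of 5.14. Car4 spans 5.24 to 9.47, with WT replicate 5 and KO replicate 10 lowest, while Car1 of the same arrays is 10.84 and 11.44.

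Car9 had WT values of 8.03, 7.93, 7.82, 7.54 and 7.14 and KO values of 7.80, 8.85, 8.42, 8.04 and 8.48. In 4 of the 5 KO arrays the signal was above every WT array, and KO replicate 6 lay among the WT values. Car12 had WT values of 7.06, 6.75, 6.12, 6.24 and 5.38 and KO values of 6.29, 6.99, 6.38, 6.41 and 6.42. Its KO values lay inside the wider WT range, and WT replicate 5 was the lowest array for both Car9 and Car12. Car14 stayed between 5.12 and 5.46 over all 10 arrays, and Car7 between 4.85 and 5.19. Car3, an enzyme best known from muscle and fat, ranged from 4.50 to 5.35, with 8 of 10 arrays under the guide. Adipocyte scores overlapped between the genotypes, but 4 of the 7 measured markers had means below the guide, with scores from -0.11 to 0.19 in WT and from -0.09 to 0.08 in KO. Car8 ranged from 6.37 to 6.87 in WT and from 6.47 to 6.97 in KO.

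The comparison of KO with WT asks how loss of the carrier goes with carbonic anhydrase expression in these tumours. The largest difference among the 10 genes was that of Car9, with means of 7.69 ± 0.36 (SD, n = 5) in WT and 8.32 ± 0.41 (SD, n = 5) in KO that differ by 0.63 ± 0.21 (SE). The forms of the colonocyte had smaller differences. Car1 averaged 10.81 ± 0.15 in WT tumours and 11.08 ± 0.50 in KO tumours, which differ by 0.27 ± 0.20. For Car2 the difference was 0.02 ± 0.14, and for Car4 it was -0.03 ± 0.76 on means of 8.14 ± 1.72 and 8.10 ± 0.98. The remaining differences were 0.21 ± 0.13 for Car13, 0.19 ± 0.27 for Car12, 0.14 ± 0.13 for Car8, -0.01 ± 0.08 for Car7, -0.05 ± 0.07 for Car14 and -0.21 ± 0.16 for Car3.

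At adjusted p under 0.05 in the limma fit over all genes, 0 of the 10 genes were called, as were 0 of the 23111 (0%). At unadjusted p under 0.05 the limma fit held 1103 of all genes (4.77%), of which 514 were higher in KO (2.22%). Ranges of the genotypes overlapped in all 10 genes, and did not overlap in 193 of all genes (0.835%). Differences were positive in 6 of the 10 genes, with a median of 0.08, and in 42.2% of all genes, with a median of -0.02. Because Car9 was chosen from this contrast, nothing is read from these counts.

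The size of the Car4 difference depended on WT replicate 5. Without that array it was -0.76, and without KO replicate 10 it was 0.36. With the colonocyte score in the model it was -0.36 ± 0.18 (SE). The Car9 difference was 0.49 without WT replicate 5 and 0.57 ± 0.17 with the colonocyte score in the model. The Car12 difference was -0.04 without WT replicate 5, 0.07 without KO replicate 7, 0.30 without WT replicate 2 and 0.38 without WT replicate 1. The smaller differences also moved with single arrays, from 0.13 (without KO replicate 7) to 0.43 (without KO replicate 9) for Car1, from 0.12 (without KO replicate 8) to 0.29 (without KO replicate 10) for Car13, from 0.08 (without KO replicate 8) to 0.21 (without WT replicate 1) for Car8, and from -0.32 (without WT replicate 4) to -0.11 (without WT replicate 5) for Car3.

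Markers of other cell types were examined beside Car9, and in each of these lists 0 genes were called between genotypes at limma adjusted p under 0.05. Positive differences were read against the 42.2% of all genes. Of 11 measured macrophage markers 10 had positive differences, with scores that did not overlap, from -0.29 to -0.05 in WT and from -0.02 to 0.39 in KO. Goblet cell markers were positive in 11 of 12 and smooth muscle markers in 12 of 12, with overlapping scores (-1.04 to 0.47 and -0.29 to 0.36 for goblet, -0.53 to 0.18 and -0.49 to 0.72 for smooth muscle, WT then KO). Absorptive colonocyte markers were positive in 15 of 18, with overlapping scores from -1.30 to 0.40 in WT and from -0.52 to 0.66 in KO. Epithelial markers were positive in 8 of 10, markers of the Wnt-driven crypt in 6 of 12, adipocyte markers in 4 of 7 and erythrocyte markers in 1 of 6. At limma unadjusted p under 0.05, 10 macrophage, 1 goblet and 0 smooth muscle markers were higher in KO, beside 2.22% of all genes. All 12 goblet and all 12 smooth muscle markers, and 10 of the 11 macrophage markers, had means above the guide to background. The part of these cells in the Car9 difference was not tested. In whole tumours, a change in the number of cells of a type and a change in RNA per cell cannot be told apart.

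**Figure D2:**
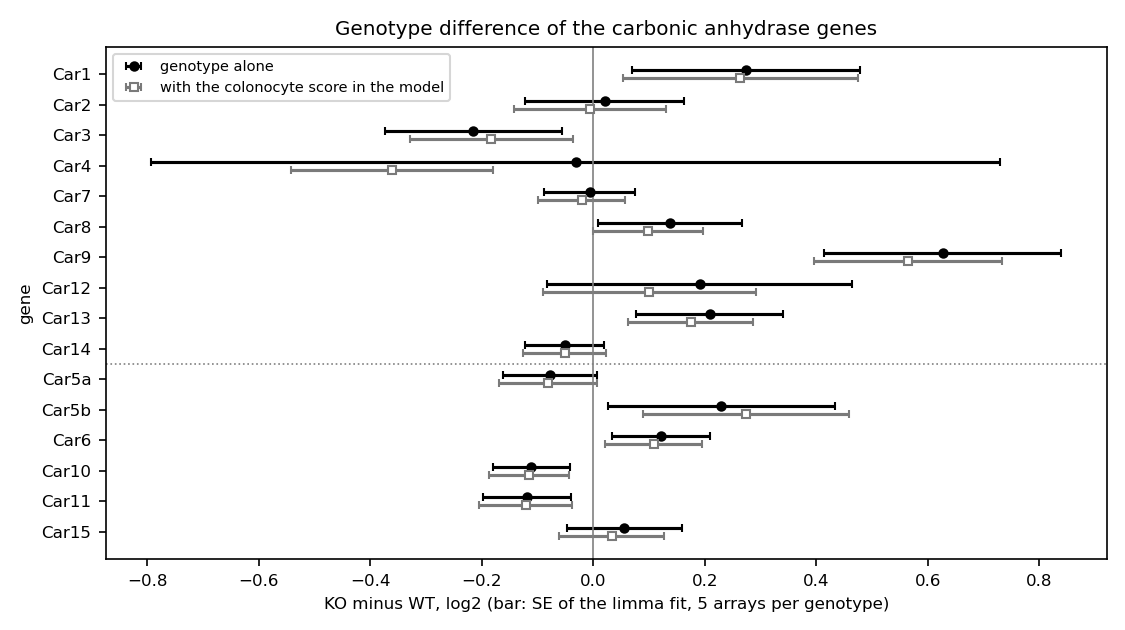
Difference KO minus WT in log2 signal, with the SE of the limma fit on 5 arrays per genotype, for the 10 genes and, under the dotted line, 6 further carbonic anhydrases. Filled circles are from genotype alone and open squares from a model that also holds the colonocyte score; Car9 has the largest difference (0.63, and 0.57 with the score), and the bar of Car4 shrinks with the score (SE from 0.76 to 0.18).

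The rule that chose the genes used the genotype contrast, so the variation between tumours of the same genotype was tested, although genes and lists were picked with earlier results known. The first question was which carbonic anhydrases follow the differentiated colonocyte. The colonocyte score was built on 18 markers with no carbonic anhydrase among them, such as the brush border proteins Cdhr5 and Vil1, the guanylin gene Guca2a and the secreted defence protein gene Lypd8. Markers were not scaled, so those that varied more weighed more. The SD within genotype was 1.80 for Cyp2c55, 1.68 for Hao2 and 1.52 for Slc5a8, named after their values were seen. It was 0.47 for Guca2a, 0.38 for Cdhr5, 0.17 for Vil1 and 0.04 for Lypd8. Given genotype, Car4 rose with the score, by 1.30 ± 0.10 (SE) per SD of the score (limma adjusted p over all genes = 0.000189). In all, 358 of 23111 genes rose (1.55%) and 75 fell (0.325%), and Car4 was the only one of the 10 that was called. At unadjusted p under 0.05 the fit held 5 of the 10 and 15.7% of all genes. The count over all genes rested strongly on WT replicate 5: without it 88 genes rose (0.381%) and 5 fell (0.0216%), and without KO replicate 7 204 rose and 15 fell. The slopes of Car12 (0.36 ± 0.10), Car9 (0.24 ± 0.09) and Car8 (0.15 ± 0.05) were positive and did not pass (limma adjusted p = 0.115, 0.215 and 0.181). Car1 and Car2, the cytosolic enzymes of the same cell, had slopes of 0.04 ± 0.11 and 0.10 ± 0.07 (limma adjusted p = 0.921 and 0.563).

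Expressed per log2 unit of the score, the Car4 slope was 2.34 with all arrays, 2.31 without WT replicate 5 and 1.95 without WT replicate 5 and KO replicate 10. The Car4 call was kept without WT replicate 5 (limma adjusted p = 0.027) and lost without both arrays (limma adjusted p = 0.317), when 0 genes of the whole table were called. Without WT replicate 5 the slope per unit went from 0.64 to 0.38 for Car12, from 0.28 to 0.49 for Car8, from 0.19 to 0.10 for Car2 and from 0.44 to 0.41 for Car9. The Car1 slope per unit was 0.07 with all arrays, 0.29 without WT replicate 5 and 1.28 without both, and so moved more with the arrays used than that of Car4.

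Over the 10 genotype-centred values Car4 and the score had a Pearson r of 0.98 and a Spearman rho of 0.84 (exact two-sided permutation within genotype, p = 0.000833 and 0.00229, adjusted over 80 relations 0.0333 and 0.0611). Without the 2 arrays farthest from the median score r was 0.83 (exact permutation p = 0.0208). For Car1 r was 0.11 (exact permutation p = 0.741, adjusted 0.871), and 0.84 without these arrays (p = 0.0573). The adjusted p of r for Car4 passed 0.05 with all 10 arrays and with none of the 10 sets of 9 arrays (0.0556 to 0.167), while r itself stayed between 0.92 and 0.98. Sets of 9 arrays allow fewer permutations than the 14400 of all 10. Their p is coarser, but a call was still possible there, as that of Car4 with the goblet score was kept in 4 of the 10 sets. The coarser p therefore did not by itself force the loss. KO replicate 10, with the second lowest score, had the second highest Car1 signal.

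Whether Car4 and the cytosolic forms differed in how they followed the score was asked after the values were seen. The Car4 signal minus the Car1 signal correlated with the score at r = 0.91 (exact permutation p = 0.00597, adjusted over 2 differences 0.00597), and the Car4 signal minus the Car2 signal at r = 0.92 (p = 0.0016, adjusted 0.00319). Without WT replicate 5 these were 0.75 (exact permutation p = 0.0559) and 0.81 (p = 0.0163). Without both low arrays they were 0.34 (exact permutation p = 0.306) and 0.57 (p = 0.0694). The size of both r values therefore depended on the 2 arrays. Neither p was under 0.05 there, but a p lost on fewer arrays does not by itself show dependence. Without both arrays the slope per log2 unit of the score was 1.95 for Car4, 1.28 for Car1 and 0.49 for Car2.

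**Figure D3:**
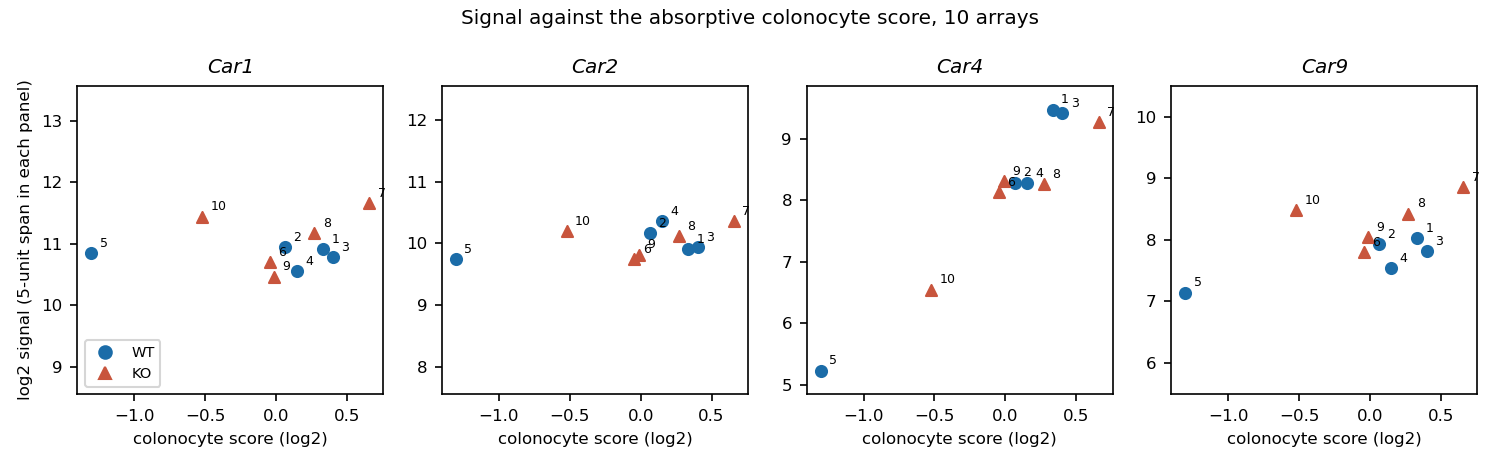
Log2 signal of Car1, Car2, Car4 and Car9 against the absorptive colonocyte score in 10 arrays, WT as circles and KO as triangles, numbered by replicate. Each vertical axis spans 5 log2 units. Car4 spans 4.24 log2 units, with its lowest points at the lowest scores, while Car1 spans 1.19 and Car2 0.62.

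The genes around carbonic anhydrases in the colon's acid and bicarbonate traffic were described from a list of 25, of which 22 were measured. Of these, 4 rose with the colonocyte score and 0 fell, beside the 1.55% and 0.325% of all genes. These, Slc9a3 and Cftr are named after their values were seen. Slc26a3, the chloride and bicarbonate exchanger of the colonocyte surface, rose by 1.51 ± 0.12 per SD (limma adjusted p = 0.000189). Slc9a2, a sodium and proton exchanger, rose by 0.61 ± 0.06, Best2, a bestrophin channel permeable to bicarbonate, by 0.57 ± 0.10, and Slc16a1, a monocarboxylate and proton carrier, by 0.23 ± 0.05 (limma adjusted p = 0.000604, 0.0193 and 0.0489). Without WT replicate 5 Slc26a3 stayed called (1.02 ± 0.13, limma adjusted p = 0.02), while Slc9a2 (0.28 ± 0.06), Best2 (0.53 ± 0.09) and Slc16a1 (0.17 ± 0.06) were not (limma adjusted p = 0.086, 0.0545 and 0.287). Cftr, the chloride and bicarbonate channel of epithelia, was called there. The slopes without WT replicate 5 are per SD of the score over the arrays left. That SD is smaller than over all arrays, so their sizes cannot be set against the slopes above. Without KO replicate 7 Slc26a3 and Slc9a2 were called. Slc16a1 was called in 1 of the 10 sets that left out 1 array. Slc9a3, the main sodium and proton exchanger of the brush border, had a slope of -0.29 ± 0.20 and did not pass (limma adjusted p = 0.563).

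Between genotypes 0 of the 22 passed in either direction, 11 differences were positive and 11 negative, and their median was 0.01 beside -0.02 over all genes. The smallest p-values belonged to Slc4a1, the exchanger of red cells (-0.13 ± 0.07), Atp12a, the proton pump of the distal colon (0.61 ± 0.34), Slc9a3r1, a scaffold of brush border exchangers (0.18 ± 0.11), and Slc9a8, a sodium and proton exchanger (0.12 ± 0.08). The mean of Slc4a1 was below the guide to background.

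**Figure D4:**
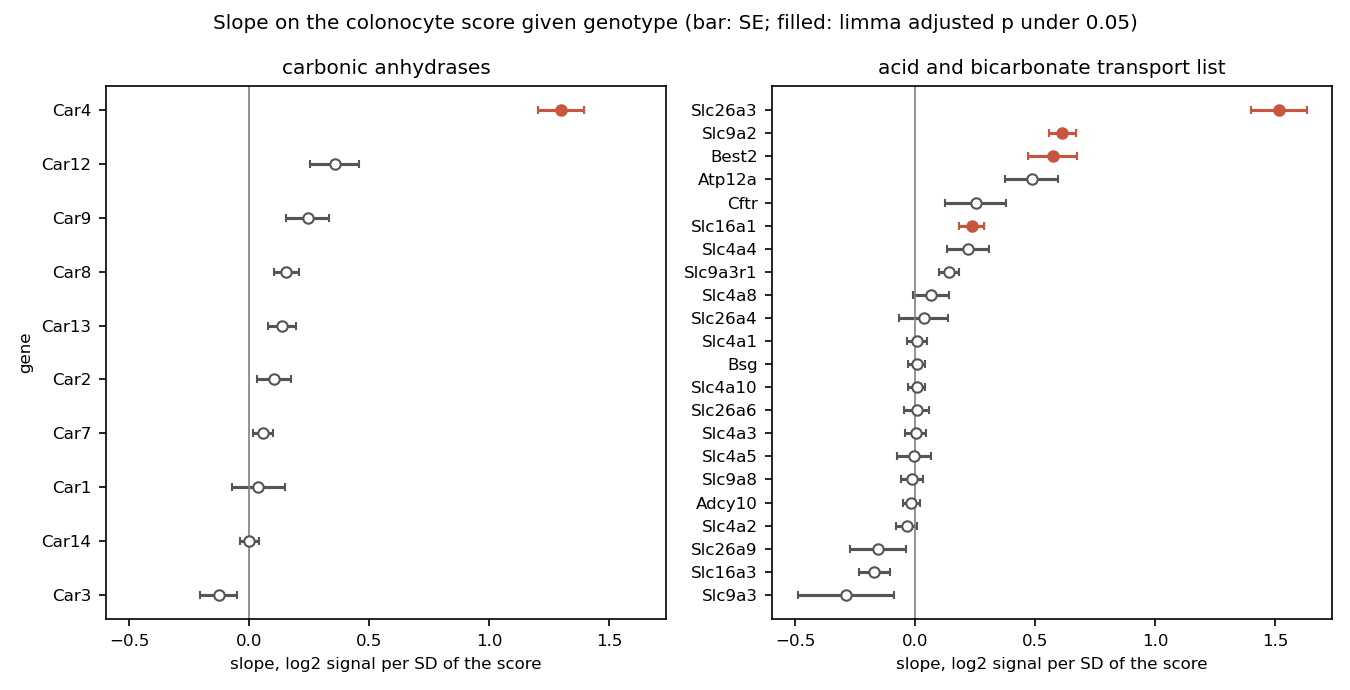
Slope of log2 signal per SD of the absorptive colonocyte score, given genotype, with its SE over 10 arrays, for the 10 carbonic anhydrases on the left and 22 acid and bicarbonate transport genes on the right. Filled points passed limma adjusted p under 0.05: Car4 at 1.30 on the left, and Slc26a3 at 1.51, Slc9a2, Best2 and Slc16a1 on the right.

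The second question was whether Car9 follows other hypoxia targets from tumour to tumour. The hypoxia score was built on 28 measured targets without carbonic anhydrases, and it varied little, with an SD of 0.11 over the arrays against 0.56 for the colonocyte score. Given genotype, Car9 had a slope of 0.16 ± 0.11 per SD of the hypoxia score and was not called. None of the 10 genes was called in this limma fit, nor any of the 23111 (0%), and at unadjusted p under 0.05 there were 1 of 10 and 971 of all genes (4.2%). Over the genotype-centred arrays r was 0.43 (exact permutation p = 0.237, adjusted over 80 relations 0.478) for Car9 and the hypoxia score, and 0.67 (p = 0.0441, adjusted 0.175) for Car9 and the colonocyte score. The difference between the 2 correlations was not tested. With the goblet, macrophage and smooth muscle scores Car9 had r of 0.70, 0.63 and 0.28 (exact permutation p = 0.0217, 0.0744 and 0.488, adjusted 0.124, 0.228 and 0.688). In the limma fit on the hypoxia score, the gene at unadjusted p under 0.05 was Car1, with a slope of 0.21 ± 0.09. Its r was 0.60 (exact permutation p = 0.0675, adjusted 0.225), and 0.44 without KO replicate 10 and WT replicate 4.

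Between genotypes 18 of the 28 hypoxia targets had positive differences, with a median of 0.05 beside -0.02 over all genes, and 0 passed in either direction. The 4 with the smallest p pointed both ways. They were Pgk1, an enzyme of glycolysis (0.45 ± 0.14), Higd1a, a protein of mitochondria (-0.29 ± 0.10), Egln3, an oxygen-sensing hydroxylase (0.25 ± 0.12), and Vegfa, the growth factor of blood vessels (-0.23 ± 0.12). The hypoxia scores of the genotypes overlapped, from -0.17 to 0.12 in WT and from -0.09 to 0.18 in KO.

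Car4 also followed the markers of goblet cells. Car4 and the goblet score had r = 0.97 and rho = 0.96 (exact permutation p = 0.000208 and 0.000625, adjusted over 80 relations 0.0167 and 0.0444). Without WT replicate 5 and KO replicate 10, r was 0.84 (exact permutation p = 0.0469). The adjusted p of r passed in 4 of the 10 sets that left out 1 array (0.0278 to 0.0833), sets that allow fewer permutations. Without WT replicate 5 r was 0.89. These scores share the arrays in which differentiated epithelial genes were low, and 5 of the 12 goblet markers rose with the colonocyte score themselves. Of the 80 relations between the 10 genes and 8 scores, 2 passed by r, both of Car4, and 2 by rho, the goblet score with Car4 and with Car8. Car8 and the goblet score had r = 0.78 and rho = 0.88 (exact permutation p = 0.00368 and 0.00111, adjusted 0.0736 and 0.0444), and r was 0.86 without these arrays (p = 0.0208).

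Among the 45 pairs of the 10 genes, 1 passed by r and 0 by rho, and 8 had an unadjusted p under 0.05 for r. Car9 and Car12, the transmembrane pair, had r = 0.80 and rho = 0.84 (exact permutation p = 0.00104 and 0.00604, adjusted over 45 pairs 0.0469 and 0.108). Without KO replicate 7 and WT replicate 5, r was 0.50 (exact permutation p = 0.0729), so the size of r depended on those arrays. The call was lost in 8 of the 10 sets that left out 1 array, sets that allow fewer permutations (r from 0.69 to 0.86, adjusted p from 0.0234 to 0.188). Car7, Car8 and Car13 had r between 0.83 and 0.88 with each other and did not pass (exact permutation p from 0.00285 to 0.00507, adjusted 0.057). The mean of Car7 was below the guide to background, so its r values are open to background. Car1 and Car4 had an r of -0.01 (exact permutation p = 0.988), while Car1 and Car9 had r = 0.73 (p = 0.0249, adjusted 0.187) and 0.50 without KO replicates 7 and 10. Car1, Car2, Car3 and Car13, which lie side by side on chromosome 3, had r from -0.39 for Car2 and Car3 to 0.56 for Car1 and Car2.

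**Figure D5:**
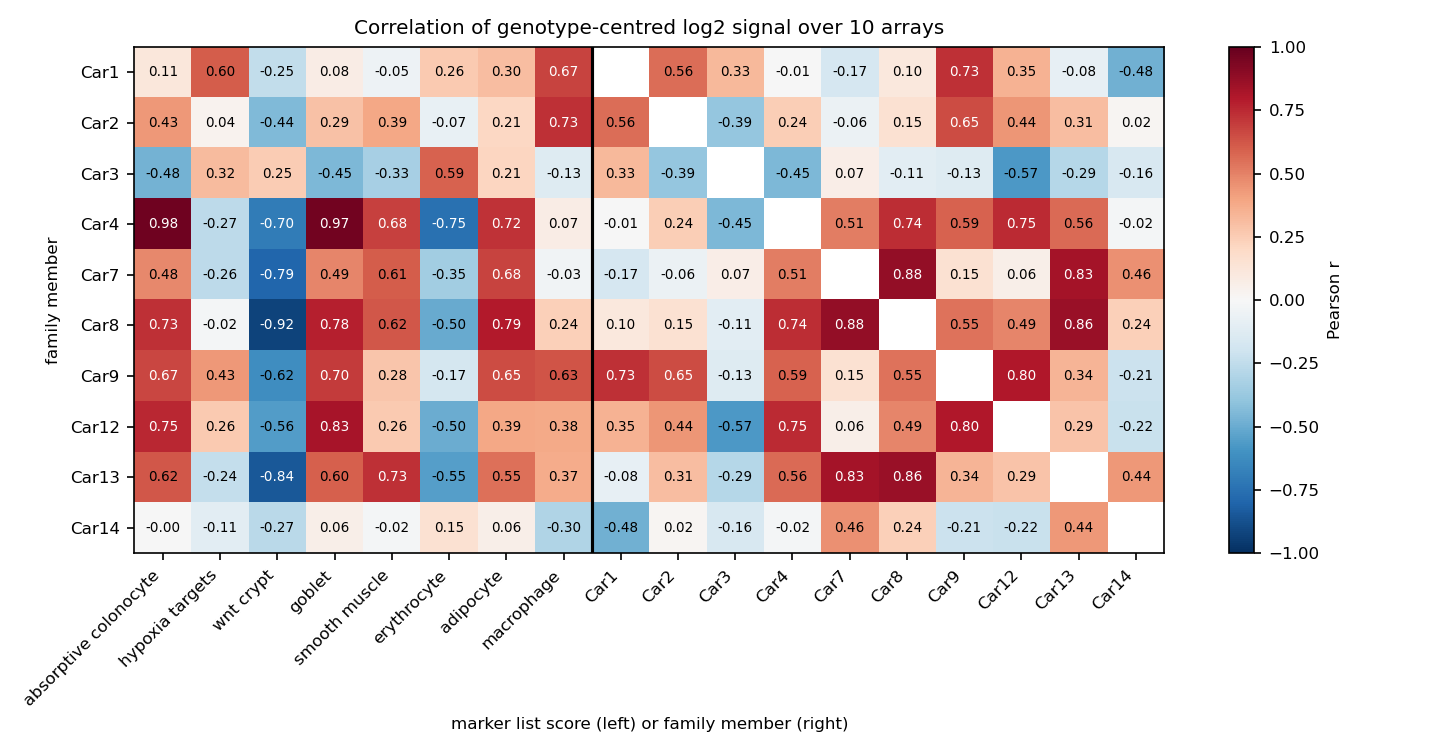
Pearson r of genotype-centred log2 signals over 10 arrays, each cell pairing a carbonic anhydrase (row) with a marker list score or another member (column). The colour runs from -1 in blue to 1 in red. Car4 reaches 0.98 with the colonocyte and 0.97 with the goblet score, Car1 stays at 0.11 and 0.08, and Car9 and Car12 share 0.80.

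The genes whose signal was most like each of 4 members over the 10 genotype-centred arrays were also found, as a description. For Car4 they were Thbs4, Slc26a3, Cnnm4, Creb3l1 and Adgrg7, with r from 0.97 to 0.98. For Car9 they were Clec4a3, Sema6d, Tmem92, Edem1 and Man1b1, with r from 0.95 to 0.97. For Car1 they were Psen2, Mab21l2, Ip6k1, Selenoi and Nars2, with r from 0.86 to 0.90, and for Car2 they were Kbtbd4, Yipf3, Rab14, Slc10a4l and Dcaf12, with r from 0.91 to 0.94. These are the top 5 for each member among named genes, with predicted, microRNA, olfactory receptor and immunoglobulin genes left out. No gene appeared in more than 1 of the 4 groups.

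The other 6 carbonic anhydrases on the arrays gave 3 positive and 3 negative genotype differences, none past the adjusted threshold, and none was called on the colonocyte score. Car5b, a mitochondrial enzyme, had a difference of 0.23 ± 0.20 and ranged from 5.76 to 6.78 in WT and from 6.03 to 6.80 in KO. Its slope on the colonocyte score was -0.17 ± 0.10, opposite in sign to that of Car4. Car15, a membrane-anchored form, had a difference of 0.06 ± 0.10, and Car11, a relative without activity, one of -0.12 ± 0.08. Car5a, Car6 and Car10 had means below the guide to background, and their differences were -0.08 ± 0.08, 0.12 ± 0.09 and -0.11 ± 0.07.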

How the data were processed

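The deposited table holds log2 signals, a value for each probe set on each of 10 Affymetrix arrays of biotin-labelled DNA. The tools named, per the submitters' processing notes, are RMA and Partek, without versions. No source states the log base, and 2 was inferred from the range of values (2.30 to 13.2). RMA equalises arrays, so a shift of all genes could not be seen, and dim signals are compressed. Of 23747 probe sets, 23111 had exactly 1 symbol in the platform annotation and were tested. The number of arrays limits the precision, and 0 pairs of arrays were identical (r of 0.964 to 0.993).

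Values were used as deposited. KO minus WT, and slopes on a score with genotype as covariate, were fitted with lmFit and eBayes of limma 3.58.1 in R 4.3.3, with Benjamini-Hochberg adjustment over all genes and a threshold of 0.05. Correlations used genotype-centred values and exact two-sided permutations within genotype (14400, smallest p 6.94e-05). Scripts were tested on simulated data. A score is the mean over a list of each gene minus its mean over the arrays. The members and lists were chosen with earlier results of these data known. Named genes are the members, other carbonic anhydrases, up to 4 genes per described list with the smallest genotype p, and the 5 genes most like Car1, Car2, Car4 and Car9. Predicted, microRNA, olfactory receptor and immunoglobulin genes were left out of the last. Others are marked as chosen after their values were seen. The Car4 minus Car1 and minus Car2 tests, the slopes per unit of score, the guide to background and the promoter window were also chosen after values were seen. List genes without a named probe set were not analysed here.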

Additional observations from a re-analysis of the deposited data

Results flagged for a closer look

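Of 54 sets of 5 arrays screened (the 16 carbonic anhydrases and 11 list scores in each genotype), 5 held an array whose gap to its nearest neighbour exceeded 0.71 of the whole range, Dixon's critical value for 5 samples. Chance gives about 1 in 20. Car4 in WT replicate 5 was 5.24, against 8.28 for the next lowest WT array, and the absorptive colonocyte score of the same array was -1.30, against 0.07. Car12 in KO replicate 7 was 6.99, against 6.42 for the next KO array. Car11 in KO replicate 9 was 5.38, against 5.63. The erythrocyte score of KO replicate 10 was 0.11, against -0.05 for the next KO array, and all 6 markers in that score had means below the guide to background. Causes were not tested.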

How the results depend on the processing

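No paired analysis was possible because the labels give WT and KO no replicate number in common. With single arrays left out, the count of the 10 genes called between genotypes and on the hypoxia score stayed 0 (0 to 0), that of all genes called between genotypes ran from 0 to 2 (2 without WT replicate 3, 1 without KO replicate 8), that on the colonocyte score from 1 to 2 (Car4, and Car12 without WT replicate 3), transport genes on that score from 2 to 5 (an alternative chosen after seeing the data), relations with scores from 0 to 2 and pairs of members from 0 to 2. Genes called between genotypes were 2 with dim genes left out, 1 with an intensity trend and robust estimation and 2 at adjusted p under 0.1; the cause was not tested. Over all 23111 genes, calls on the colonocyte score ran from 93 (without WT replicate 5) to 460 (without WT replicate 3) with single arrays left out. With both scores in the model 3 members (Car4, Car9 and Car12) were called on the colonocyte score, beside 672 of all genes. In the main fit 358 genes rose and 75 fell, and the cause of the change was not tested. Without the 2 arrays farthest from the median score 0 members and 0 of all genes were called. Without those arrays 0 relations with scores passed. For the 2 relations that passed by r with all arrays, that loss says nothing about stability. There 8 arrays with equal numbers of each genotype allow no p below 0.00174, or 0.139 for 1 relation adjusted over 80. For the crypt and macrophage scores the arrays left out share a genotype, so this limit does not hold there. After quantile normalization 0 pairs passed (Car9 and Car12, adjusted p = 0.051). Without single arrays the Car4 slope stayed called (limma adjusted p from 0.000322 to 0.027), while r of Car4 with the colonocyte score stayed between 0.92 and 0.98 with adjusted p from 0.0556 to 0.167. Sets with 1 array left out allow fewer permutations than all 10. Relations and pairs could still pass there, up to 2 of each, so the lower counts were not forced by the coarser p alone. The Car9 difference ran from 0.49 to 0.76 over the alternative runs. Car9 was chosen for its higher mean in KO, so nothing is read from its kept sign. The differences of Car2, Car4, Car7 and Car12 took either sign.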

Other observations

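Markers of the Wnt-driven crypt, 12 of 14 measured, ran opposite to several members. Car8, Car13 and Car7 had r of -0.92, -0.84 and -0.79 with the crypt score (exact permutation p = 0.00333, 0.00778 and 0.0165, adjusted over 80 relations 0.0736, 0.124 and 0.124), and none passed. The mean of Car7 was below the guide to background. Without WT replicates 1 and 5, the arrays farthest from the median of that score, r was -0.89, -0.88 and -0.81 (exact permutation p = 0.0306, 0.0306 and 0.0361). The crypt score overlapped between genotypes, from -0.44 to 0.48 in WT and from -0.43 to 0.38 in KO. All 12 crypt markers had negative slopes on the colonocyte score, with a median of -0.27 per SD, and 0 were called.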
